A study of Mus musculus with 9 samples.

Results

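Antioxidant, glutathione and NRF2 target genes were examined in whole lenses of newborn mice (P0, the day of birth). The list holds 43 genes, chosen by symbol from the NRF2 pathway, the glutathione and thioredoxin systems, peroxide removal and detoxication. All 43 were found among the 47729 genes of the tables, and 41 of them passed a filter on low counts that left 15557 genes in the test. *Sod3* and *Osgin1* did not pass it. The list was also selected on a measured result, since the levels of *Hmox1*, *Ephx1* and *Akr1b8* in *Le-Cre* relative to *FVB/N* lenses were part of the choice. That comparison is therefore described with no p for a gene of the list. Its counts of genes at a cutoff are not a test of the list, and the other comparisons share pools with it.

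RNA-Seq was performed on 3 pools of lenses from each of 3 lines, non-transgenic *FVB/N* mice and mice hemizygous for the *P0-3.9GFPCre* or the *Le-Cre* transgene, all on the *FVB/N* background. A pool held 6 lenses from 3 newborn mice, so the spread between pools is that between groups of animals rather than single animals. Part of the *Pax6* P0 promoter drives both transgenes and is active in the lens placode, the surrounding surface ectoderm and later the lens epithelium. *P0-3.9GFPCre* makes a fusion of GFP and CRE, and *Le-Cre* makes CRE together with GFP from an internal ribosome entry site. Both lines were made by injection of zygotes, so each has its own integration site. No group had GFP alone, and CRE, GFP and the integration site cannot be told apart.

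NRF2, encoded by *Nfe2l2*, is a transcription factor that is held in the cytoplasm and marked for degradation by its adaptor KEAP1. Oxidants and electrophiles that modify KEAP1 release NRF2, which enters the nucleus, pairs with a small MAF protein and binds antioxidant response elements near genes of heme breakdown, glutathione synthesis, detoxication and NADPH supply. The lens depends on these genes, because its fiber cells keep their crystallins for life and hold glutathione at a high concentration, which limits the oxidation of protein thiols that accompanies cataract.

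Antioxidant response elements contain a short core that was searched as TGACNNNGC, on both strands, in windows from 250 bases before to 50 bases after the start of each gene in RefSeq (GRCm38.p6). Of the 43 genes, 36 had such a window, and 9 of these 36 (25%) held the core against 3781 of 27025 genes (14%) overall. The 9 genes were *Nfe2l2*, *Srxn1*, *Gclm*, *Prdx1*, *Pgd*, *Me1*, *Txnrd1*, *Sod1* and *G6pdx*. The sites of *Me1*, *Sod1* and *G6pdx* are shown because the levels of these genes are compared between lines below, and those of *Prdx1* and *Gclm* because these genes encode an abundant peroxiredoxin and a subunit of the enzyme for glutathione synthesis. Each sequence runs 5′ to 3′ on the strand that carries the core, which stands in capitals. For *Me1* this is the strand of the gene, and for the others it is the opposite strand. The sites lie at chr9:86695902-86695930 (*Me1*), chr16:90220696-90220724 (*Sod1*), chrX:74428919-74428947 (*G6pdx*), chr4:116685456-116685484 (*Prdx1*) and chr3:122245413-122245441 (*Gclm*).
Me1: gatgccgccgTGACTCAGCgcttctcgcg
Sod1: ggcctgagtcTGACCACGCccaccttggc
G6pdx: gcgtgtgcttTGACTGAGCtgacccgcct
Prdx1: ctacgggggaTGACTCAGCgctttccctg
Gclm: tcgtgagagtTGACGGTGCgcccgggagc
The core of *Me1* and *Prdx1* reads the same. *Ephx1* and *Akr1b8* had no match in their windows, which says only that these letters are not there. *Hmox1*, *Gsta4*, *Gclc*, *Gsr*, *Msra*, *Prdx6* and *Sod3* had no window and were not searched. A match is a description of the sequence, and binding was not measured.

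The depth of the pools ranged from 20670968 to 28098059 total expected counts. Crystallin genes, which mark the lens, took 39.1% to 43.03% of them. Of 7 markers of the cornea and surface epithelium, 4 (*Kera*, *Krt12*, *Trp63* and *Krt14*) were at 0 in every pool. *FVB/N* replicate 3 stood apart, with 57 of 11637 genes more than 2-fold above or below all 8 other pools, against 3 to 18 genes for each other pool. These counts scale by total reads. None of the 43 antioxidant genes was among the 57. With the normalized library sizes used below, however, *Slc7a11* would be (62.7 CPM, against at most 31.1 CPM elsewhere). Some of the results that use the *FVB/N* pools are also given without *FVB/N* replicate 3. Transcripts of Y-linked genes were at 126 to 194 CPM, that is, reads scaled by normalized library size, in the *FVB/N* pools, 1.66 to 135 CPM in the *P0-3.9GFPCre* pools and 0.633 to 71.9 CPM in the *Le-Cre* pools, so that the sex of the pooled mice and the line were not independent. Because whole lenses were used, more RNA per cell and more cells of a type cannot be told apart.

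Levels of different genes were compared in TPM, the unit that accounts for transcript length as well as library size. In *FVB/N* lenses 11 of the 43 genes had a mean of at least 100 TPM, and together they held 86.5% of the summed TPM of the list. A further 18 genes lay between 10 and 100 TPM, 10 genes between 1 and 10 TPM, and *Nqo1*, *Glrx*, *Osgin1* and *Sod3* lay under 1 TPM. The summed TPM of the list ranged from 4492 to 4676 in *FVB/N*, from 4660 to 5081 in *P0-3.9GFPCre* and from 4726 to 5015 in *Le-Cre* pools. The highest *FVB/N* pool thus exceeded the lowest *P0-3.9GFPCre* pool and lay below all *Le-Cre* pools. Most of this sum came from a few genes, above all *Ftl1*.

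Iron storage and peroxide removal led the list. *Ftl1*, the light chain of ferritin, had 1371, 1448 and 1604 TPM in the 3 *FVB/N* pools, 1470, 1352 and 1402 TPM in *P0-3.9GFPCre* and 1573, 1425 and 1396 TPM in *Le-Cre*. The pools of all lines overlapped, and this gene alone held 32.1% of the summed level of the list in *FVB/N*. However, 58.2% of the 51-base sequences of *Ftl1*, the length of a read, also occur in other genes, mostly processed copies of ferritin. *Gpx1*, a selenium-dependent peroxidase that uses glutathione, was the second most abundant, with 635, 690 and 527 TPM in *FVB/N*, 670, 693 and 727 TPM in *P0-3.9GFPCre* and 559, 608 and 606 TPM in *Le-Cre*. Next in the order of *FVB/N* means were *Fth1* (386 ± 17.6 TPM, SD, n = 3 pools), the ferritin heavy chain, and *Prdx1* (301 ± 15.5 TPM), a peroxiredoxin.

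Among the enzymes of detoxication, *Gstp1*, a glutathione transferase, was the highest, with 222, 255 and 259 TPM in *FVB/N*, 337, 274 and 343 TPM in *P0-3.9GFPCre* and 337, 317 and 314 TPM in *Le-Cre*. All transgenic pools were above all *FVB/N* pools in TPM, whereas in CPM, used for the tests, *P0-3.9GFPCre* and *FVB/N* overlapped. *Gss*, the glutathione synthetase, led the genes of glutathione supply with 234, 215 and 230 TPM in *FVB/N*, 239, 226 and 232 TPM in *P0-3.9GFPCre* and 255, 241 and 236 TPM in *Le-Cre*. The *Le-Cre* pools lay above the *FVB/N* pools in TPM but overlapped them in CPM, and the *P0-3.9GFPCre* pools overlapped both in TPM. *Tkt*, the transketolase of the pentose phosphate pathway, led the genes of NADPH supply with 169, 172 and 172 TPM in *FVB/N*, 191, 177 and 183 TPM in *P0-3.9GFPCre* and 175, 197 and 173 TPM in *Le-Cre*.

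The remaining leaders of their groups were lower. *Sod1*, the cytosolic superoxide dismutase, had 121, 130 and 110 TPM in *FVB/N*, 141, 146 and 145 TPM in *P0-3.9GFPCre* and 119, 130 and 122 TPM in *Le-Cre*. *Txn2*, the mitochondrial thioredoxin, had 38.9, 42.95 and 35.9 TPM, then 48.0, 41.2 and 44.5 TPM, and 40.2, 38.6 and 41.1 TPM in the same order of lines. The transcript of NRF2 itself was lower and steady, with 14.1, 14.9 and 15.2 TPM of *Nfe2l2* in *FVB/N*, 15.8, 15.0 and 15.4 TPM in *P0-3.9GFPCre* and 13.8, 17.4 and 14.8 TPM in *Le-Cre*. NRF2 is controlled mainly as a protein, which was not measured here, and *Keap1* was at 8.91 ± 1.17 TPM (SD, n = 3) in *FVB/N*.

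**Figure D1:**
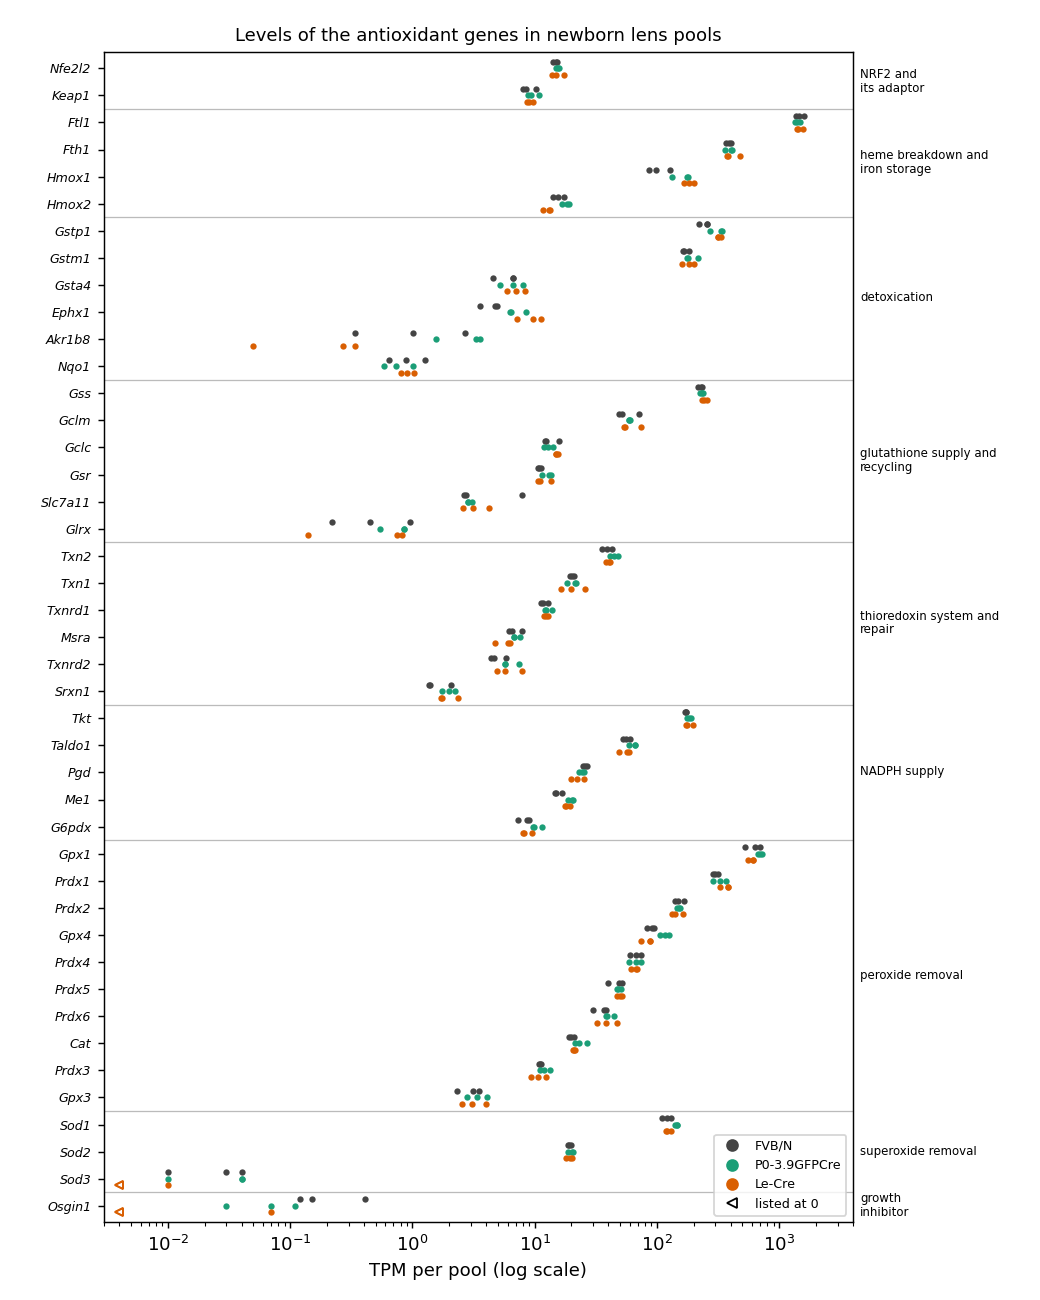
TPM of the 43 genes in each of the 9 pools, on a log scale, with genes grouped by role and ordered by their *FVB/N* mean. Each dot is a pool and open triangles at the left edge are pools listed at 0. *Ftl1* lies between 1352 and 1604 TPM, and *Akr1b8* is the gene whose lines are most widely spread, from 0.05 to 3.57 TPM.

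Both genes below the filter had few reads. *Sod3*, the extracellular superoxide dismutase, had 4, 1 and 3 counts in *FVB/N*, 3, 1 and 3 counts in *P0-3.9GFPCre* and 0, 0 and 1 counts in *Le-Cre*. *Osgin1*, an inhibitor of growth that responds to oxidized lipid, had 1, 4 and 5 counts in *FVB/N*, 1, 4 and 1 counts in *P0-3.9GFPCre* and 3, 0 and 0 counts in *Le-Cre*. At this depth a difference between lines in either gene was not detectable.

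Most of the list varied little over the 9 pools. In CPM the highest pool was under 1.5 times the lowest for 28 of the 41 genes tested, with the narrowest ranges for *Sod2*, the mitochondrial superoxide dismutase (1.09 times), and *Txnrd1*, a thioredoxin reductase (1.11 times). In 6 genes the highest pool was at least 2 times the lowest. They were *Nqo1* and *Ephx1* (2.26 times each), *Hmox1* (2.33 times), *Slc7a11* (3.34 times), *Glrx* (6.42 times) and *Akr1b8* (102 times). *Nqo1*, a quinone reductase, and *Glrx*, a glutaredoxin, had 4 to 41 counts in each pool, so their ranges rest on few reads. *Slc7a11*, the cystine transporter that limits glutathione synthesis, had 18.8, 19.96 and 62.7 CPM in *FVB/N*, 20.8, 20.5 and 24.1 CPM in *P0-3.9GFPCre* and 20.5, 31.1 and 23.2 CPM in the *Le-Cre* pools. Its range came from *FVB/N* replicate 3, and the coefficient of variation within *FVB/N* was 74%, against a median of 6.79% over genes of at least 10 CPM.

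In *Le-Cre* lenses relative to *FVB/N*, heme oxygenase 1 and epoxide hydrolase 1 were higher and the aldo-keto reductase *Akr1b8* was lower. No p is given for this comparison, since it was used to choose the list. Across all genes, 10 of 15557 (0.0643%) passed the cutoff in edgeR (1.5-fold or more, adjusted p no higher than 0.05), and 0 of the 41 antioxidant genes did. The study, which used DESeq2, listed *Hmox1* and *Ephx1* among the genes overexpressed in *Le-Cre* lenses. DESeq2 without a prior called *Hmox1*, *Ephx1* and *Akr1b8* here, which is a description only, since these genes entered the choice of the list. The count of 10 fell to 0 on adjusting for Y-linked reads, 0 without any one *Le-Cre* pool and 0 to 1 without any one *FVB/N* pool. Of the 41 genes, 4 had every *Le-Cre* pool above every *FVB/N* pool (9.76%, against 6.46% of all genes) and 2 had every *Le-Cre* pool below (4.88%, against 7.03%). The median log2 fold change of the list was 0.02 and that of all genes 0.00.

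*Hmox1* encodes the inducible enzyme that opens heme into biliverdin, iron and carbon monoxide, and it is on chromosome 8 from 75093621 to 75100589 (GRCm38). It had 125, 141 and 198 CPM in *FVB/N*, 244, 188 and 251 CPM in *P0-3.9GFPCre*, and 292, 249.8 and 253 CPM in the *Le-Cre* pools. The *Le-Cre* pools were all above the *FVB/N* pools, and the *P0-3.9GFPCre* pools lay between, overlapping both. Relative to *FVB/N*, the *Le-Cre* log2 fold change was 0.78 (standard error, SE, 0.16), or 1.71-fold, and 0.996 without *FVB/N* replicate 3. Macrophages and red blood cells also handle heme, and the summed level of 13 macrophage markers was 3.93 to 7.18 CPM in *FVB/N*, 4.51 to 8.62 CPM in *P0-3.9GFPCre* and 5.70 to 7.10 CPM in the *Le-Cre* pools. Red blood cell markers summed to 45.1 to 89.1, 42.1 to 69.0 and 45.6 to 120 CPM in the same lines. Both sums overlapped between lines. Of the 6 macrophage markers past the filter, *Cd163* and *Cx3cr1* had every *P0-3.9GFPCre* pool above every *FVB/N* pool. *Cx3cr1* also had every *Le-Cre* pool above every *FVB/N* pool, and 0 of the 6 were lower in this way. These markers had few reads, with 15 to 41 counts per pool for *Cd163* and 3 to 24 for *Cx3cr1*. The part of macrophages and red blood cells in the level of *Hmox1* was not tested.

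*Ephx1* encodes microsomal epoxide hydrolase, which turns reactive epoxides into diols, and lies on chromosome 1 from 180976210 to 181020904. It had 4.77, 3.74 and 4.01 CPM in *FVB/N*, 4.85, 4.80 and 6.82 CPM in *P0-3.9GFPCre*, and 7.01, 8.39 and 8.46 CPM in the *Le-Cre* pools. In CPM the lines did not overlap, with *FVB/N* lowest and *Le-Cre* highest. The gap between *FVB/N* and *P0-3.9GFPCre* was narrow, from 4.77 to 4.80 CPM. In TPM the *P0-3.9GFPCre* pools (6.33 to 8.53 TPM) overlapped the *Le-Cre* pools (7.16 to 11.27 TPM), and both lay above *FVB/N* (3.59 to 4.92 TPM). Relative to *FVB/N*, the *Le-Cre* log2 fold change was 0.93 (SE 0.17), or 1.90-fold.

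*Akr1b8*, on chromosome 6 from 34354119 to 34368463, encodes a reductase of aldehydes and was a low transcript. The *FVB/N* pools had 24, 76 and 9 counts (0.91, 3.27 and 0.37 CPM), the *P0-3.9GFPCre* pools 86, 75 and 42 counts (3.54, 3.63 and 1.89 CPM) and the *Le-Cre* pools 1, 7 and 5 counts (0.04, 0.27 and 0.23 CPM). All *Le-Cre* pools were below all others, but the *FVB/N* pools differed among themselves by more than any pair of *P0-3.9GFPCre* pools. Relative to *FVB/N*, the *Le-Cre* log2 fold change was −3.08 (SE 0.83) and −1.85 without *FVB/N* replicate 2, the highest *FVB/N* pool. That pool also had the highest sum of 9 pigment epithelium and iris markers (48.0 CPM, against 24.7 to 37.4 CPM in the other 8 pools), and *Le-Cre* replicate 2 had the next highest (37.4 CPM) at 0.27 CPM of *Akr1b8*. The part of such cells in the level of *Akr1b8* was not tested. Of its 51-base sequences, 2.76% occur in other genes.

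*Gstp1* and *Me1*, which encodes the cytosolic malic enzyme that makes NADPH, were also higher in every *Le-Cre* pool than in every *FVB/N* pool. *Gstp1* had 149, 167 and 181 CPM in *FVB/N*, 211, 178 and 225 CPM in *P0-3.9GFPCre* and 224, 198 and 216 CPM in the *Le-Cre* pools, a log2 fold change of 0.36 (SE 0.10) in *Le-Cre*. That change was 0.188 in a fit that adjusted for the share of Y-linked reads. *Me1* had 41.8, 40.2 and 45.7 CPM in *FVB/N*, 48.0, 49.2 and 49.1 CPM in *P0-3.9GFPCre* and 54.5, 49.3 and 49.7 CPM in the *Le-Cre* pools, a log2 fold change of 0.27 (SE 0.07). The separation of *Me1* was narrow, from 45.7 CPM in the highest *FVB/N* pool to 49.3 CPM in the lowest *Le-Cre* pool.

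*Hmox2*, the constitutive heme oxygenase, was lower in every *Le-Cre* pool than in every *FVB/N* pool, with 13.2, 18.5 and 14.9 CPM in *FVB/N*, 16.5, 19.0 and 17.8 CPM in *P0-3.9GFPCre* and 12.7, 13.0 and 11.4 CPM in the *Le-Cre* pools. The log2 fold change was −0.33 (SE 0.13). Its exons overlap those of *Cdip1* on the other strand of chromosome 16, and strand-specific counting is not stated in the sources used here. Of the 51-base sequences of *Hmox2*, 34.7% occur in *Cdip1*, which had more reads. Reads of these genes may not be fully separated, so the values of *Hmox2* are uncertain. *Hmox2* made only 8.33% of the summed reads of *Hmox2*, *Cdip1* and *Ppp4r2*, too little for the sum to show a change in it.

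**Figure D2:**
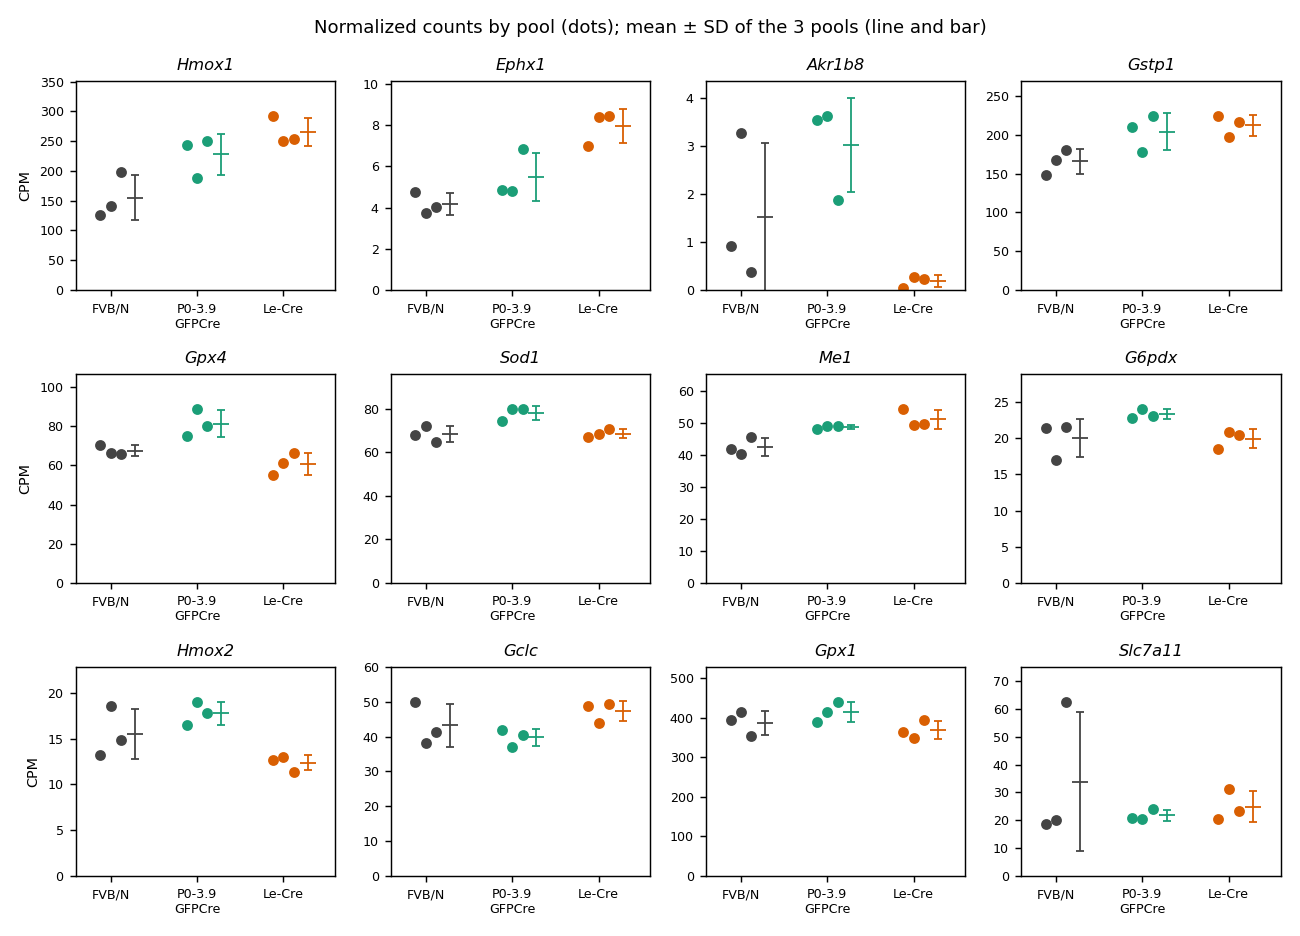
CPM of 12 antioxidant genes in the 9 pools, with a separate axis from 0 for each gene. Dots are pools, and the line and bar beside them are the mean and SD of the 3 pools of a line (the SD bar of *Akr1b8* in *FVB/N* extends below 0 and is clipped there). *Hmox1* and *Ephx1* are highest in *Le-Cre*, *Akr1b8* is under 0.3 CPM in the *Le-Cre* pools, and *Gpx4*, *Sod1* and *G6pdx* are highest in *P0-3.9GFPCre*.

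In *P0-3.9GFPCre* lenses relative to the same *FVB/N* pools, 7 of the 41 genes were higher at an unadjusted p under 0.05 and 0 were lower, but none passed the adjusted cutoff. The 7 genes were *Hmox1*, *Ephx1*, *Gstp1*, *Gpx4*, *Sod1*, *Me1* and *G6pdx*, or 17.1% of the list, against 3.41% of all genes that were higher and 3.41% that were lower at that threshold. At the cutoff, 0 of 41 antioxidant genes and 0 of 15557 genes (0%) were called by edgeR's quasi-likelihood test, DESeq2 with or without a prior also called 0 of the list, and the smallest adjusted p in the list was 0.59. *Sod1*, *G6pdx*, *Me1*, *Ephx1*, *Gstm1* and *Gpx4* had every *P0-3.9GFPCre* pool above every *FVB/N* pool (6 of 41, 14.6%, against 6.02% of all genes), and 0 had every pool below (against 5.94%). The median log2 fold change was 0.10 over the list, with 29 genes above 0 and 12 below, and 0.00 over all genes. The list median was 0.038 in a fit that adjusted for the share of Y-linked reads, 0.051 by DESeq2 with a normal prior and 0.059 without *P0-3.9GFPCre* replicate 3. *Hmox1* and *Ephx1* had entered the list through a comparison with the same *FVB/N* pools, so their part in this count is not independent of the choice. When each pool was left out in turn, 5 to 7 genes were higher and 0 to 2 lower at that threshold. *Hmox1*, *Gstp1*, *Gpx4* and *Sod1* were among the higher genes in all 9 fits. The lower genes were *Slc7a11* without *FVB/N* replicate 1, and *Slc7a11* and *Prdx2* without *FVB/N* replicate 2. Without *FVB/N* replicate 3 there were 6 higher genes, and *Ephx1* was not among them. A fit that adjusted for the share of Y-linked reads gave 5, 12.2% of the list against 2.83% of all genes. Those 5 were *Gpx4*, *Gstp1*, *Hmox1*, *Sod1* and *Gsr*, which is not one of the 7. *Ephx1*, *Me1* and the X-linked *G6pdx* were no longer included. These fits were chosen after seeing the data. With 3 pools against 3, the smallest two-sided p that exact permutation can give for any one gene is 0.1.

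*Hmox1* had the largest change of these 7, a log2 fold change of 0.56 (SE 0.16), or 1.47-fold, which is under the cutoff (unadjusted p = 0.0049, adjusted p = 0.59 by edgeR). Without *FVB/N* replicate 3, its highest *FVB/N* pool, the change was 0.77, with an adjusted p of 0.489 by edgeR. Over all 20 alternatives the adjusted p ranged from 0.00167, by edgeR without the filter on low counts and at a fold under the cutoff, to 0.968. For *Ephx1* the log2 fold change was 0.39 (SE 0.18, adjusted p = 0.722 by edgeR), and it was 0.21 without *P0-3.9GFPCre* replicate 3, which alone exceeded 5 CPM in this line. For *Gstp1* the change was 0.30 (SE 0.10), and 0.35 when *Gstp2* and *Gm3934*, which share 51-base sequences with it, were added to its counts.

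Peroxide and superoxide removal followed with smaller changes. *Gpx4*, the peroxidase that reduces lipid peroxides in membranes and whose loss leads to ferroptosis, had 70.7, 66.5 and 65.8 CPM in *FVB/N*, 75.1, 89.0 and 80.2 CPM in *P0-3.9GFPCre* and 55.2, 61.4 and 66.4 CPM in the *Le-Cre* pools. Its log2 fold change in *P0-3.9GFPCre* was 0.27 (SE 0.09, adjusted p = 0.637 by edgeR). *Sod1* had 68.1, 72.0 and 64.8 CPM in *FVB/N*, 74.3, 79.9 and 80.0 CPM in *P0-3.9GFPCre* and 66.8, 68.2 and 70.7 CPM in the *Le-Cre* pools, a log2 fold change of 0.19 (SE 0.06) in *P0-3.9GFPCre*. *G6pdx*, the X-linked glucose-6-phosphate dehydrogenase that feeds the pentose phosphate pathway, had 21.4, 17.0 and 21.6 CPM in *FVB/N*, 22.8, 24.1 and 23.1 CPM in *P0-3.9GFPCre* and 18.5, 20.9 and 20.4 CPM in the *Le-Cre* pools, a change of 0.22 (SE 0.10) in *P0-3.9GFPCre*.

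For *Gpx4*, *Sod1* and *G6pdx* every *P0-3.9GFPCre* pool exceeded all 6 pools of the other lines, which was so for 3 of 41 antioxidant genes (7.32%) and for 1.67% of all genes. *G6pdx* overlaps *Ikbkg* and made 51.4% of the summed reads of *G6pdx*, *Ikbkg* and *G6pd2*, a sum that changed by 0.13. Of the 51-base sequences of *Gpx4*, 34.5% also occur in the pseudogene *Gpx4-ps2*, for which no counts were used. *Me1* changed by 0.20 (SE 0.07) in *P0-3.9GFPCre*, and 27.9% of its 51-base sequences also occur in other genes. In these 7 genes the direction was the same under all 20 alternatives tried for each. The genes were picked by p in the same pools, so this is not independent support.

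**Figure D3:**
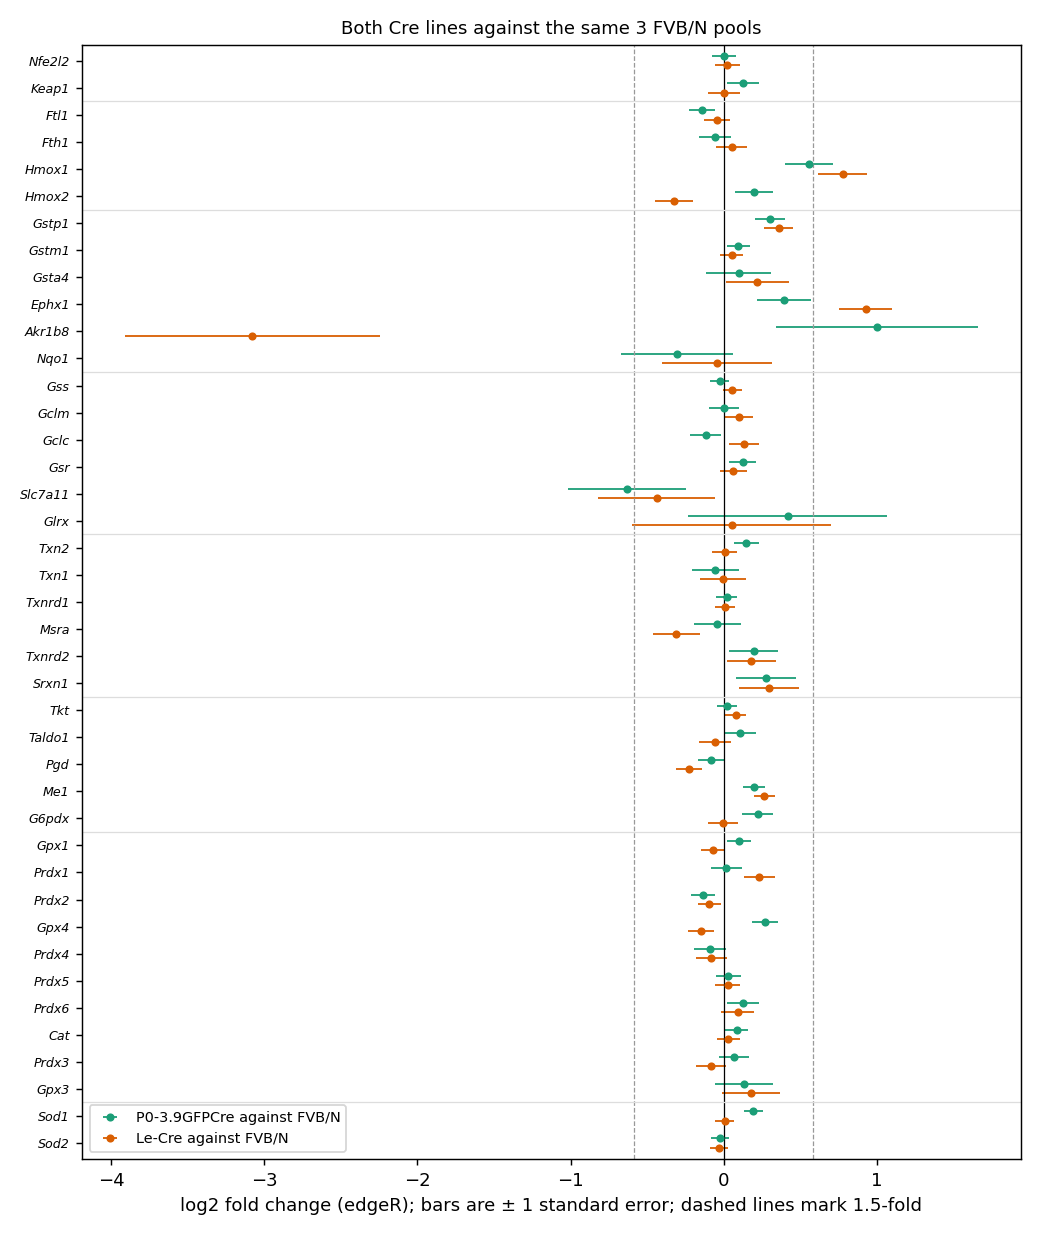
Log2 fold change of the 41 tested genes in *P0-3.9GFPCre* and in *Le-Cre*, each against the same 3 *FVB/N* pools, with bars of 1 standard error and dashed lines at 1.5-fold. Most genes lie within 0.3 of 0 in both lines, and *Akr1b8* lies above 0 in *P0-3.9GFPCre* and at −3.08 in *Le-Cre*.

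Comparing the transgenic lines with each other, which uses the *Le-Cre* pools that entered the choice of the list, gave no call at the cutoff either, with 0 of 41 antioxidant genes and 0 of 15557 genes (0%). At an unadjusted p under 0.05, *Gclc* and *Ephx1* were higher in *Le-Cre* (2 of 41, 4.88%, against 3.63% of all genes), and *Hmox2*, *Akr1b8*, *Gpx4*, *Sod1*, *G6pdx* and *Gpx1* were lower (6 of 41, 14.6%, against 4.25%). Pools did not overlap for 5 genes that were higher in *Le-Cre* (12.2%, against 6.74% of all genes), namely *Gss*, *Gclm*, *Gclc*, *Me1* and *Ephx1*. They did not overlap for 6 that were lower (14.6%, against 7.37%), namely *Hmox2*, *Akr1b8*, *Gpx4*, *Sod1*, *G6pdx* and *Msra*. These separations are in CPM, where that of *Me1* was 49.26 against 49.22 CPM. In TPM the pools of *Gss*, *Gclm*, *Me1* and *Ephx1* overlapped, while those of *Gclc* and of the 6 lower genes did not. The median log2 fold change was 0.00 over the list and over all genes. When each pool was left out in turn, *Ephx1* was among the 1 to 3 higher genes, and *Akr1b8*, *Gpx4*, *Hmox2* and *Sod1* among the 4 to 6 lower genes, in all 9 fits.

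*Akr1b8* had a log2 fold change of −4.08 (SE 0.82, unadjusted p = 0.00043, adjusted p = 0.292 by edgeR) between these lines, from 3.02 ± 0.983 CPM (SD, n = 3) in *P0-3.9GFPCre* to 0.178 ± 0.126 CPM in the *Le-Cre* pools. It was the only member of the list past the cutoff under any of the alternatives in this comparison. The adjusted p was 0.0272 by edgeR when only the pools of these lines were fitted, 0.0428 by edgeR without *FVB/N* replicate 2, and 4.04e-05 by DESeq2 without a prior on the fold changes. Over all 20 alternatives it ranged from 1.54e-05 to 0.712. *Akr1b8* entered the choice of the list through the same *Le-Cre* pools, so these p-values are a description and not support.

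*Gpx4* had the next smallest p, with a log2 fold change of −0.42 (SE 0.09, unadjusted p = 0.00045, adjusted p = 0.292 by edgeR), or a fall to 0.749 of the *P0-3.9GFPCre* level. DESeq2 without a prior gave an adjusted p of 0.00414 for it, at a fold under the cutoff, and the range over the alternatives was 0.00414 to 0.712. *Hmox2* changed by −0.52 (SE 0.13, unadjusted p = 0.0015 by edgeR), with the uncertainty of read assignment given above. *Ephx1* was higher by 0.53 (SE 0.17, unadjusted p = 0.01, adjusted p = 0.471 by edgeR). It too entered the choice of the list through the *Le-Cre* pools, so its p is not independent of that choice.

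*Gclc*, the catalytic subunit of glutamate-cysteine ligase and thus of the limiting step of glutathione synthesis, had 50.1, 38.3 and 41.3 CPM in *FVB/N*, 42.0, 37.2 and 40.4 CPM in *P0-3.9GFPCre* and 48.7, 44.0 and 49.5 CPM in the *Le-Cre* pools. Its log2 fold change between the transgenic lines was 0.25 (SE 0.10, unadjusted p = 0.029 by edgeR), while the *FVB/N* pools spanned nearly the range of both. *Gpx1* was lower in *Le-Cre* by a log2 fold change of −0.17 (SE 0.08, unadjusted p = 0.049 by edgeR), with 394, 415 and 354 CPM in *FVB/N*, 390.4, 415 and 441 CPM in *P0-3.9GFPCre* and 364, 349 and 395 CPM in the *Le-Cre* pools. Its pools overlapped between the lines.

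**Figure D4:**
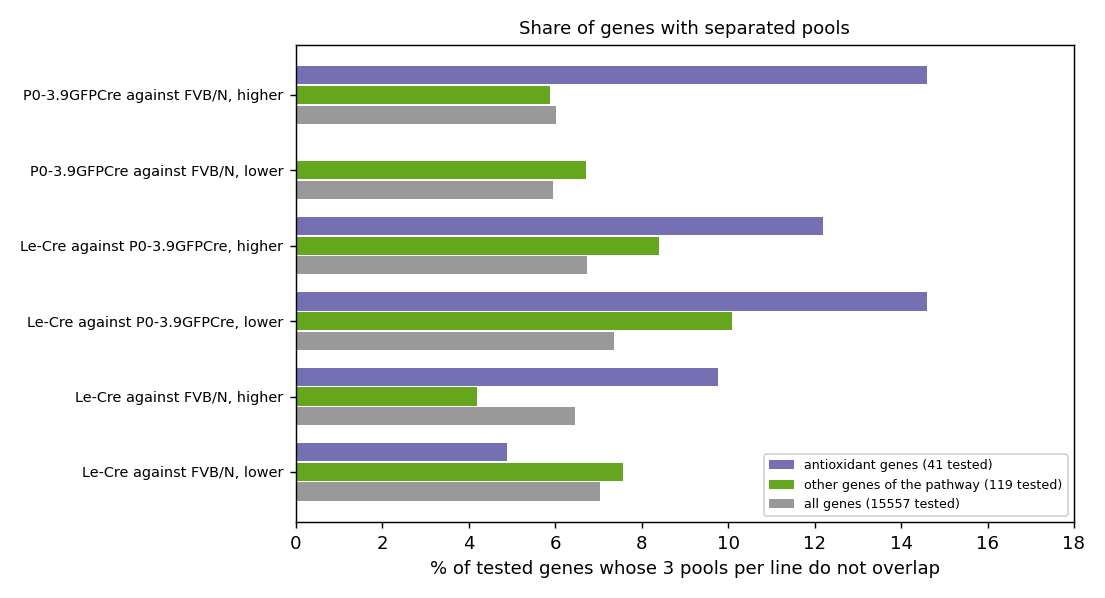
Share of genes whose 3 pools of one line all lie above or all below the 3 pools of the other, for the 41 antioxidant genes, 119 other genes of the pathway and all 15557 tested genes. In *P0-3.9GFPCre* against *FVB/N* the share higher is 14.6% of the antioxidant genes and 6.02% of all genes, and 0 antioxidant genes are lower. The bars for *Le-Cre* against *FVB/N* include the genes that chose the list.

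The thioredoxin group had small changes. Its 6 members, *Txn1*, *Txn2*, *Txnrd1*, *Txnrd2*, *Srxn1* and the methionine sulfoxide reductase *Msra*, had log2 fold changes from −0.05 to 0.27 in *P0-3.9GFPCre* and from −0.31 to 0.30 in *Le-Cre*, with a median standard error of 0.15 and 0 members at an unadjusted p under 0.05 in *P0-3.9GFPCre*. The 6 genes of glutathione supply and recycling (*Slc7a11*, *Gclc*, *Gclm*, *Gss*, *Gsr* and *Glrx*) ranged from −0.63 to 0.42 in *P0-3.9GFPCre*, where 0 had an unadjusted p under 0.05. Both ends of that range belonged to variable genes, *Slc7a11* (SE 0.38) and *Glrx* (SE 0.65). The value of *Slc7a11* includes *FVB/N* replicate 3, its highest pool. Among the 10 genes of peroxide removal, the peroxiredoxins *Prdx1* to *Prdx6*, the peroxidases *Gpx1*, *Gpx3* and *Gpx4* and catalase (*Cat*), 8 were above 0 and 2 below in *P0-3.9GFPCre*, with *Gpx4* at 0.27 the highest and *Prdx2* at −0.13 the lowest. In *Le-Cre* the same group was split 5 to 5, from −0.15 for *Gpx4* to 0.23 for *Prdx1*. The ferritin genes *Ftl1* and *Fth1* changed by −0.14 and −0.06 in *P0-3.9GFPCre* and by −0.05 and 0.05 in *Le-Cre*, with standard errors of 0.09 and 0.10. *Nfe2l2* and *Keap1* changed by 0.00 and 0.13 in *P0-3.9GFPCre* and by 0.02 and 0.00 in *Le-Cre*. *Nqo1*, often used as a marker of NRF2 activity, had changes of −0.31 and −0.05 with standard errors of 0.37 and 0.36.

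A list of other genes of the pathway held 150 symbols, of which 142 were found in the tables and 119 were tested. In all comparisons 0 of the 119 genes passed the cutoff in the edgeR test. In *P0-3.9GFPCre* relative to *FVB/N*, 6 were higher and 5 lower at an unadjusted p under 0.05 (5.04% and 4.2%, against 3.41% of all genes in each direction), and the median log2 fold change was 0.02. The genes with the smallest p among those with separated pools were *Cp*, *Blvra*, *Akr1b3* and *Bach1*. Ceruloplasmin (*Cp*), a ferroxidase, had a log2 fold change of −0.19, with 266, 241 and 279 CPM in *FVB/N* and 225, 234 and 229 CPM in *P0-3.9GFPCre*. Biliverdin reductase (*Blvra*), the step after heme oxygenase, had a log2 fold change of 0.26, with 16.1, 16.0 and 15.7 CPM in *FVB/N* and 20.3, 18.1 and 18.6 CPM in *P0-3.9GFPCre*. Aldose reductase (*Akr1b3*), which makes sorbitol in the lens and is a relative of *Akr1b8*, had a log2 fold change of 0.33, with 17.0, 21.1 and 21.4 CPM in *FVB/N*, 27.3, 24.2 and 23.4 CPM in *P0-3.9GFPCre* and 17.8, 21.5 and 21.1 CPM in the *Le-Cre* pools. *Bach1*, which encodes a repressor of *Hmox1*, had a log2 fold change of −0.17, with 23.2, 23.0 and 22.2 CPM in *FVB/N* and 20.5, 19.6 and 20.4 CPM in *P0-3.9GFPCre*. Adjusted p values of these 4 genes were 0.637 to 0.662 by edgeR.

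Between *Le-Cre* and *P0-3.9GFPCre*, 4 pathway genes were higher and 5 lower at an unadjusted p under 0.05 (3.36% and 4.2%, against 3.63% and 4.25% of all genes). The named genes here were *Ccs*, *Sesn3*, *Mafg* and *Sepsecs*, with adjusted p values of 0.452 to 0.525 by edgeR. The copper chaperone of SOD1 (*Ccs*) had a log2 fold change of −0.32, with 22.3, 21.4 and 23.4 CPM in *P0-3.9GFPCre*, 18.7, 15.9 and 19.1 CPM in the *Le-Cre* pools and 19.8, 20.3 and 17.3 CPM in *FVB/N*. For both *Ccs* and *Sod1*, every *P0-3.9GFPCre* pool was above every pool of the other lines. *Mafg*, a small MAF partner of NRF2, had a log2 fold change of −0.21, *Sesn3*, a sestrin, 0.17, and *Sepsecs*, an enzyme of selenocysteine synthesis, 0.25.

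In *Le-Cre* relative to *FVB/N*, the pathway genes with separated pools and the largest fold changes were *Heph*, *Sesn2*, *Slc40a1* and *Me2*. Hephaestin (*Heph*), a ferroxidase of iron export, had 11.1, 14.8 and 9.05 CPM in *FVB/N*, 8.39, 9.16 and 6.64 CPM in *P0-3.9GFPCre* and 5.98, 7.14 and 6.83 CPM in the *Le-Cre* pools. The change in *Le-Cre* was −0.81 on the log2 scale (SE 0.18). Sestrin 2 (*Sesn2*), a stress-induced antioxidant protein, was higher by 0.48, ferroportin (*Slc40a1*), the iron exporter, by 0.35, and the mitochondrial malic enzyme (*Me2*) by 0.24. These values are descriptions, as for the antioxidant genes in this comparison.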

How the data were processed

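Whole newborn lenses were measured by RNA-Seq in 9 pools. The authors prepared polyadenylated RNA with a TruSeq kit, trimmed single-end reads of 51 bases with Trimmomatic 0.36, aligned them to GRCm38 by GSNAP and estimated gene abundance by RSEM 1.3.0, as their methods and processing notes state. The deposited tables give expected counts (RSEM's estimated number of reads per gene, not normalized), TPM computed by the authors with RSEM, and a score, the posterior SD of each deposited count. This score was used only as a look at the assignment of reads to members. Its maximum over pools was 10% of the count for *Akr1b8* and 1.7% for *Hmox2*, whose values remain uncertain for the reason given above. The gene annotation was not given in the sources used here. Coordinates and shared 51-base sequences come from GENCODE M21, which held all 43 members.

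Samples were grouped by the line and number in their titles. Expected counts were rounded and fitted with edgeR 4.0.16 in R 4.3.3 (TMM, filterByExpr, glmQLFit and glmQLFTest over all 9 pools, Benjamini-Hochberg adjustment over 15557 genes). The cutoff (1.5-fold or more, adjusted p no higher than 0.05) is that of the study's methods, which name DESeq2, run here (1.42.0) as an alternative. CPM values use the TMM library sizes, and standard errors (SE) are the log2 fold change over the root of the F statistic. The fits were run on simulated counts with large changes and the same dispersion for every gene. That checked only the working of the code, since small changes, a pool that stands apart and a sex imbalance were not simulated. The other alternatives changed the scaling, the filter, the pools fitted, the covariates and the cutoff, or left out 1 pool.

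The members and all lists were chosen with earlier results of these data known. Values in every pool are given for *Hmox1*, *Ephx1* and *Akr1b8*, the most abundant member of each role, members at an unadjusted p under 0.05 in a tested comparison, members whose *FVB/N* and *Le-Cre* pools do not overlap at 1.25-fold or more, and members below the filter. *Slc7a11* and *Me1* in *Le-Cre* were added after their values were seen. Up to 4 pathway genes per comparison were named by the smallest p (by fold for *Le-Cre* against *FVB/N*) among genes with separated pools. Nothing says that pools of a line came from separate litters, so p-values measure the spread between these pools. The reads, CRE transcripts and isoforms were not analysed here.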

Additional observations from a re-analysis of the deposited data

Results flagged for a closer look

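In 4 members all *P0-3.9GFPCre* pools lay on one side of the *FVB/N* mean and all *Le-Cre* pools on the other, which was so for 4 of 41 members (9.76%) and for 524 of 15557 genes (3.37%). The difference between the lines was tested by the direct comparison in edgeR, and 0 of the 4 passed the adjusted cutoff. *Akr1b8* differed by a log2 fold change of −4.08 (adjusted p = 0.292, range over its alternatives 1.54e-05 to 0.712), lower in *Le-Cre*, where 0.04 to 0.27 CPM remained. *Gpx4* differed by −0.42 (adjusted p = 0.292 by edgeR), and its *P0-3.9GFPCre* pools were also above all *FVB/N* pools. *Hmox2* differed by −0.52 (adjusted p = 0.385 by edgeR), a value made uncertain by reads shared with the overlapping *Cdip1*. *Gclc* was higher in *Le-Cre* by 0.25 (adjusted p = 0.556 by edgeR), with *FVB/N* pools on both sides of it. The *Le-Cre* pools entered the choice of the list, so *Akr1b8* was not an independent finding here.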

How the results depend on the processing

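Each of the 20 log2 fold changes of named members kept its direction under every alternative run. They were picked by p or by separated pools and refitted on the same pools, so a kept direction was likely from the start. *Hmox2* in *Le-Cre* against *FVB/N* was at −0.005 when summed with genes that share its reads. In *Le-Cre* against *P0-3.9GFPCre*, 0 members were called, but 1 (*Akr1b8*) was called without the filter on low counts, by DESeq2 without a prior and with only the compared lines in the fit, and leaving out 1 pool gave 0 to 1 (*Akr1b8*, without *FVB/N* replicate 2). In *Le-Cre* against *FVB/N*, 3 members (*Hmox1*, *Akr1b8* and *Ephx1*) and 1 pathway gene (*Heph*) were called both without the filter and by DESeq2 without a prior. These members entered the choice of the list through this same comparison, so their calls are not a test and are a description only. *Akr1b8* could not be fitted with only those lines, since it did not pass the filter there. In *P0-3.9GFPCre* against *FVB/N*, 0 members were called under every alternative. The member median of 0.10 there was 0.143 with scaling by total counts (all genes 0.05), 0.051 by DESeq2 with a normal prior, 0.038 with Y-linked counts as a covariate, and 0.059 to 0.115 when 1 pool was left out. For *Le-Cre* against *P0-3.9GFPCre* that median was −0.030 to 0.041 when 1 pool was left out, and for *Le-Cre* against *FVB/N* it was 0.059 with total counts. Over all genes, the calls went from 0, 0 and 10 (*P0-3.9GFPCre* against *FVB/N*, *Le-Cre* against *P0-3.9GFPCre*, *Le-Cre* against *FVB/N*) to 93, 123 and 131 without the filter, to 4, 38 and 54 by DESeq2 without a prior, to 1, 4 and 10 with a normal prior and to 0, 31 and 13 with only the compared lines. They were 0, 0 and 7 with total counts, 0, 0 and 5 under a filter on mean counts (10 or more), and 0, 0 and 0 with the Y-linked covariate. Leaving out 1 pool gave 0 to 14, 0 to 18 and 0 to 10, with 14 and 18 without *FVB/N* replicate 2 and 0 in the last comparison without any one *Le-Cre* pool. The causes were not tested. Members at an unadjusted p under 0.05, recounted by choices made after seeing the data, were 5 to 7 higher and 0 to 2 lower in *P0-3.9GFPCre* than in *FVB/N*, and 1 to 3 higher and 4 to 6 lower in *Le-Cre* than in *P0-3.9GFPCre*, when 1 pool was left out. With Y-linked counts as a covariate they were 5 and 0, and 1 and 7. The numbers of the pools did not pair them, with correlations of −0.15 to 0.14 between same-numbered pools and 4 of 9 pools closest to their own number, and the replicate block gave 0, 0 and 2 calls over all genes, 0 members called and a member median of 0.10 in *P0-3.9GFPCre*. At 20670968 counts or more per pool, members under 1 TPM rested on too few reads for a comparison.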
